A study of Saccharomyces cerevisiae with 4 samples.

Results

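Untreated yeast lacking *SOD1* was set against untreated wild type, with 1 array for each strain. Of the 5449 genes measured, 5344 entered the comparison because their brighter array lay above the background floor of 2.31 on the log2 scale. The largest differences were lower transcript levels of the phosphate starvation system and higher levels for general stress protection, iron uptake and thiamine synthesis. Both strains were haploid FM391, grown at 30 °C in leucine-free synthetic medium to an OD600 of about 0.4, and neither received peroxide. The mutant is labelled sod1Δ. The labels do not name the marker that replaced the gene, any plasmid in the strains, or the number of clones or cultures.

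The arrays come from a study of 4 samples in which each strain was also measured after 20 min in 0.4 mM H2O2. Its design looked for peroxide-induced genes whose induction was reduced without *SOD1*, and the untreated pair is the starting point of that question. Total RNA, 50 ng per sample, was amplified over the whole transcriptome, labelled with biotin and hybridized to Affymetrix arrays. With 1 array per group there is no replicate check, so every difference below compares 2 arrays, and no p-value is given.

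Sod1 is the copper-zinc superoxide dismutase of the cytosol and of the space between the mitochondrial membranes, and it turns superoxide into hydrogen peroxide and oxygen. It receives its copper from the chaperone Ccs1, while the manganese enzyme Sod2 works in the mitochondrial matrix. Yeast without Sod1 is known for needing lysine and methionine in air, for damage to iron-sulfur proteins and for raised free iron.

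The *SOD1* transcript had a level of 14.21 in wild type and 2.40 in sod1Δ, just above the floor, as the labels state. Transcripts of its neighbours on chromosome X differed little. *URA8*, encoding a CTP synthase, was at 9.16 and 9.33, and *ADO1*, encoding adenosine kinase, at 12.75 and 12.60. The next neighbours *RSM26*, *VPS25* and *ECM27* differed by -0.32, -0.26 and 0.38 on the log2 scale. *CCS1* was at 10.98 and 10.94, *SOD2* at 11.92 and 11.99, and *MTM1*, which encodes a mitochondrial carrier needed for Sod2 activity, at 9.47 and 9.97. No gene around the deletion and no other gene of superoxide removal on the list therefore reached a 2-fold difference.

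Markers of a cells were bright in both strains, and 3 of 4 alpha cell markers were also above the floor. The a-factor genes *MFA1* and *MFA2* were at 12.30 and 12.20 in wild type and at 11.88 and 12.51 in sod1Δ, and the receptor gene *STE2* at 12.74 and 12.65. The alpha-factor gene *MF(ALPHA)1* was below the floor on both arrays, at 2.18 and 2.21. *MF(ALPHA)2*, the minor alpha-factor gene, was above it at 7.41 and 7.40, the alpha-agglutinin gene *SAG1* at 8.11 and 8.30, and *STE3*, the a-factor receptor gene, was 2.51-fold higher in sod1Δ, at 6.72 and 8.04. *URA3* (1.99 and 2.00) and *MET17* (2.21 and 2.24) were at background on both, and *LEU2* was at 14.27 and 14.76.

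Array quality differed in some measures. The medians of the *S. pombe* probe sets, whose targets were absent, were 2.16 in wild type and 2.18 in sod1Δ. Over 42 genes with a pair of probe sets, the probe sets disagreed about the difference with an SD of 0.31 each, and 3 pairs disagreed at least 2-fold. All 27 probe sets for spiked-in hybridization controls that were above the floor were lower on the sod1Δ array, from -1.78 to -0.02 with a median of -0.60, and 3 of them by at least 2-fold. This gap is wider than the median of most gene lists, and the values below keep the deposited scaling, without correction to these controls. Setting the controls' median equal on both arrays would raise every difference alike and move the median of all genes from -0.07 to 0.53. Higher and lower below therefore mean relative to the bulk of genes. The signal at the 3′ end minus that at the 5′ end, a sign of RNA integrity, had a median over 7 control genes of 0.86 in wild type and 1.00 in sod1Δ, with the widest gap for *SRB4* (1.53 and 2.82). The part of these differences in the results was not tested.

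Of the 5344 genes, 198 (3.71%) were at least 2-fold higher in sod1Δ and 170 (3.18%) at least 2-fold lower. These shares are the background for the count of each gene list below. Most genes differed little, since 75.5% lay within 0.5 of each other and the median difference was -0.07 (quartiles -0.32 and 0.19). More of the higher genes passed 4-fold, with 34 between 4- and 8-fold and 14 at 8-fold or more, against 9 and 9 among the lower genes, although the 4 largest differences, those of *SOD1*, *SPL2*, *PHO11* and *PHO89*, were decreases. An array of a whole culture cannot tell fewer cells with a transcript from less transcript per cell. Quantile normalization over the arrays moved the split to 229 higher and 129 lower, and an offset of 32 on the linear signal, a damping of dim genes, to 148 and 70. Scaling to the hybridization controls gave 751 higher and 39 lower.

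**Figure D1:**
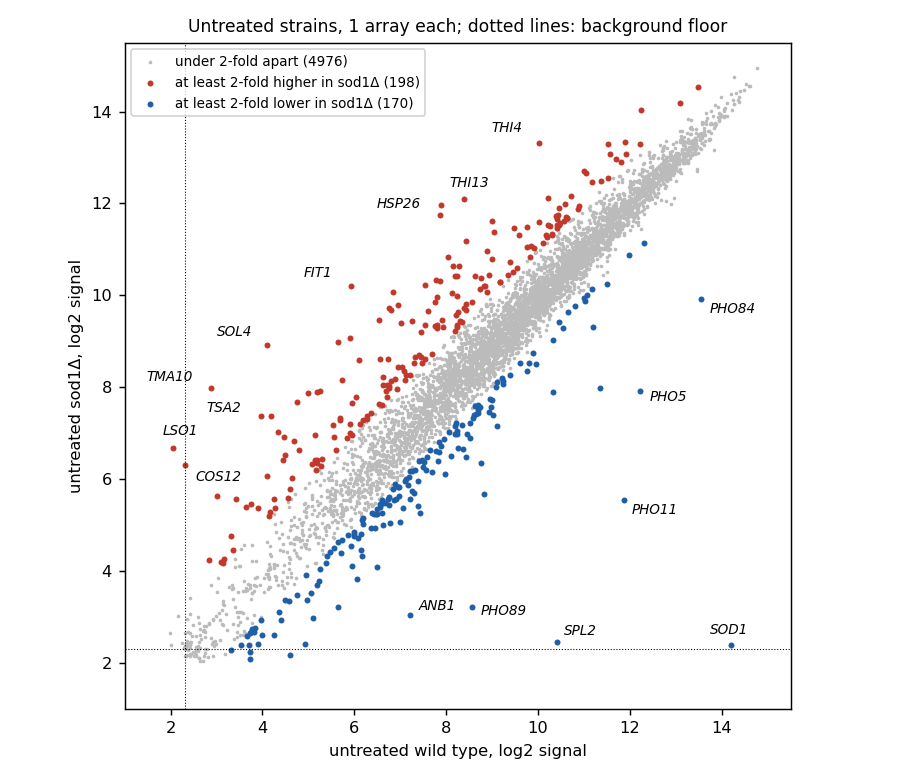
Log2 signal of each of the 5344 genes in untreated wild type (x axis) and untreated sod1Δ (y axis), 1 array each, with genes at least 2-fold higher in red (198) and lower in blue (170). *SOD1*, *SPL2* and *PHO89* fall to near the dotted background floor of 2.31 in sod1Δ, while *TMA10* and *LSO1* start near it in wild type. *SOL4* starts at 4.11.

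Higher and lower genes differed in signal. The higher genes had a median of 8.45 for the mean of both arrays and the lower genes 6.46, against 9.32 over all genes compared. Among the 562 genes with a mean under 6, 6.58% were higher and 11.6% lower, and among the 626 genes with a mean of 12 or more, 1.76% were higher and 0 lower. Lower calls were thus concentrated among dim genes, where differences also spread most, with an SD over genes of 0.87 under 6 and 0.31 at 12 or more. The genes next to the thresholds were *THI21* (1.01) and *TDA10* (0.998) for higher, and *MSL1* (-1.0007) and *FUS3* (-0.9988) for lower. *PDR18* (2.313 on its brighter array) was just above the floor and *GAL7* (2.311) just below it.

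**Figure D2:**
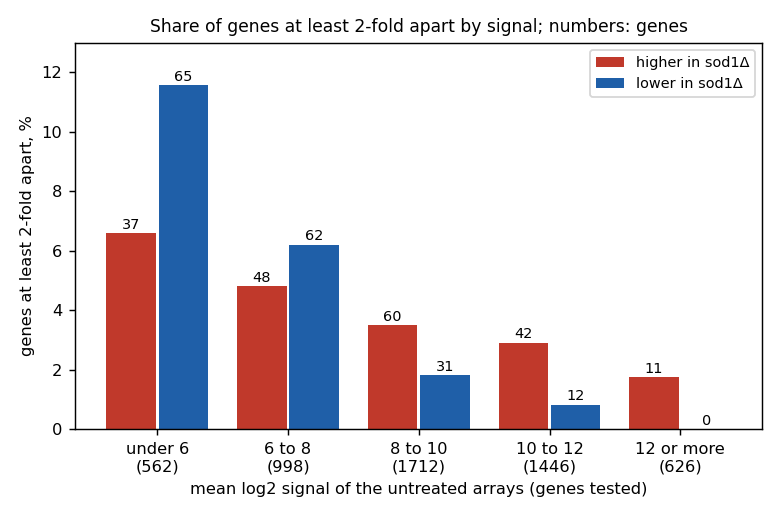
Percent of genes at least 2-fold higher (red) or lower (blue) in untreated sod1Δ (y axis), by the mean log2 signal of the untreated arrays (x axis, genes compared in brackets), with the number of genes above each bar. Lower calls go from 65 of 562 genes under 6 to 0 of 626 genes at 12 or more.

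Phosphate genes made up the largest decreases after *SOD1*. In this system, scarce phosphate lets the factor Pho4 enter the nucleus and switch on genes for phosphate uptake, secreted phosphatases and polyphosphate. Of 29 genes of phosphate starvation, polyphosphate and phosphate sensing, 9 were at least 2-fold lower in sod1Δ and 0 higher, beside 3.18% and 3.71% of all genes. Scaled to the hybridization controls, 7 were lower and 3 higher. The list's median was only -0.36, against -0.07 for all genes, and the 20 members short of 2-fold went both ways, from *PHO8* (-0.99) to *GIT1*, a glycerophosphoinositol transporter gene (0.69), and *PHM8*, a lysophosphatidic acid phosphatase gene (0.62).

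The transport genes split by type. *PHO84*, the high-affinity proton-coupled phosphate transporter gene, stood at 13.54 in wild type against 9.93 in sod1Δ, 12.3-fold lower. *PHO89*, the sodium-coupled high-affinity transporter gene, was at 8.56 and 3.21, 40.9-fold lower and close to the floor. *SPL2*, whose product holds back low-affinity phosphate transport, was at 10.41 and 2.45, 250.0-fold lower in deposited signal, a fold that reaches down to near background. The low-affinity transporter genes *PHO90* and *PHO91* differed by 0.01 and -0.15, and *PHO87* by 0.61, all under 2-fold. The genes of high-affinity uptake and *SPL2* were lower, then, and those of low-affinity uptake were under 2-fold.

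Secreted phosphatase genes were lower as well. *PHO5*, the main repressible acid phosphatase gene, was at 12.23 and 7.93, 19.7-fold lower. *PHO11* was at 11.88 and 5.55, on a probe set that can also bind near-identical transcripts, so the value may not be that of *PHO11* alone. *PHO3*, the acid phosphatase gene that thiamine rather than phosphate controls, was at 12.98 and 13.06. *PHO8*, the vacuolar alkaline phosphatase gene, was at 11.51 and 10.52, just short of 2-fold.

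Polyphosphate genes followed in part. The Vtc proteins form the complex that makes polyphosphate at the vacuole. *VTC3* was at 11.34 and 7.98, 10.3-fold lower, and *VTC4*, the catalytic subunit gene, at 12.31 and 11.14. *VTC1* and *VTC2* differed by -0.75 and -0.83, and the polyphosphatase genes *PPX1* and *PPN1* by -0.35 and 0.08. *PHM6*, a phosphate-responsive gene of unknown function, was at 10.32 and 7.89.

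Among regulators, *PHO81*, the gene for the inhibitor that itself belongs to the regulon, was at 9.88 and 8.74, 2.21-fold lower. The kinase gene *PHO85* and its cyclin gene *PHO80* differed by -0.15 and -0.30, and the factor genes *PHO4* and *PHO2* by -0.77 and -0.15. The inositol pyrophosphate kinase genes *VIP1* and *KCS1*, which signal phosphate status, differed by -0.36 and -0.15. Of the regulators named, only *PHO81* passed 2-fold. *PHO89* lies beside *PCA1*, a cadmium exporter gene that was higher by 2.05, and *SPL2* beside *ARO9*, higher by 1.12, so the decreases were not shared by these neighbours.

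General stress genes were the largest group of increases. Msn2 and Msn4 are the zinc finger factors that switch on protective genes under many stresses and when protein kinase A activity is low. Of 34 targets, 20 were at least 2-fold higher in sod1Δ and 1 lower, beside 3.71% and 3.18% of all genes. Their median was 1.56, against -0.07 for all genes. *TMA10*, whose product is found with ribosomes, had a level of 2.88 in wild type and 7.98 in sod1Δ, 34.4-fold higher. *SOL4*, encoding 6-phosphogluconolactonase, was at 4.11 and 8.92, 28.2-fold higher. *HSP26*, the small heat shock protein gene, was at 7.90 and 11.98, 16.9-fold higher. These large folds began from dim wild type signals for *TMA10* and *SOL4* but not for *HSP26*.

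Other targets were higher over a wide range of signals. *DDR2*, a multistress gene, was at 7.86 and 11.75. *HSP12*, encoding a membrane-stabilising protein, was at 11.52 and 13.30, and *HXK1*, encoding hexokinase 1, at 12.23 and 13.29. *PHM7*, *RTN2*, *RTC3*, *NQM1*, *MSC1*, *MOH1*, *DCS2*, *SPI1*, *GND2*, *GAD1* and *ALD3* were between 4.18- and 7.59-fold higher. The glutamate decarboxylase gene *GAD1* and the aldehyde dehydrogenase gene *ALD3* are the metabolic enzymes best known among these.

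Not every target followed. *CTT1*, the cytosolic catalase gene and a classic Msn2 and Msn4 target, stood at 3.78 in wild type against 2.74 in sod1Δ, 2.05-fold lower and dim on both. *CYC7*, *GRE1*, *GPD1* and *HOR7* differed by 0.01, 0.01, 0.08 and 0.18. The regulators themselves stayed under 2-fold in all 19 cases. The nearest to it were *MSN4* (8.86 and 9.77) and *IRA1* (8.74 and 9.66), whose product is an inhibitor of Ras, while *MSN2* differed by 0.34 and the kinase gene *RIM15* by 0.01. Outside the list, *USV1*, a zinc finger factor gene of growth on poor carbon sources, was at 4.50 and 6.53.

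**Figure D3:**
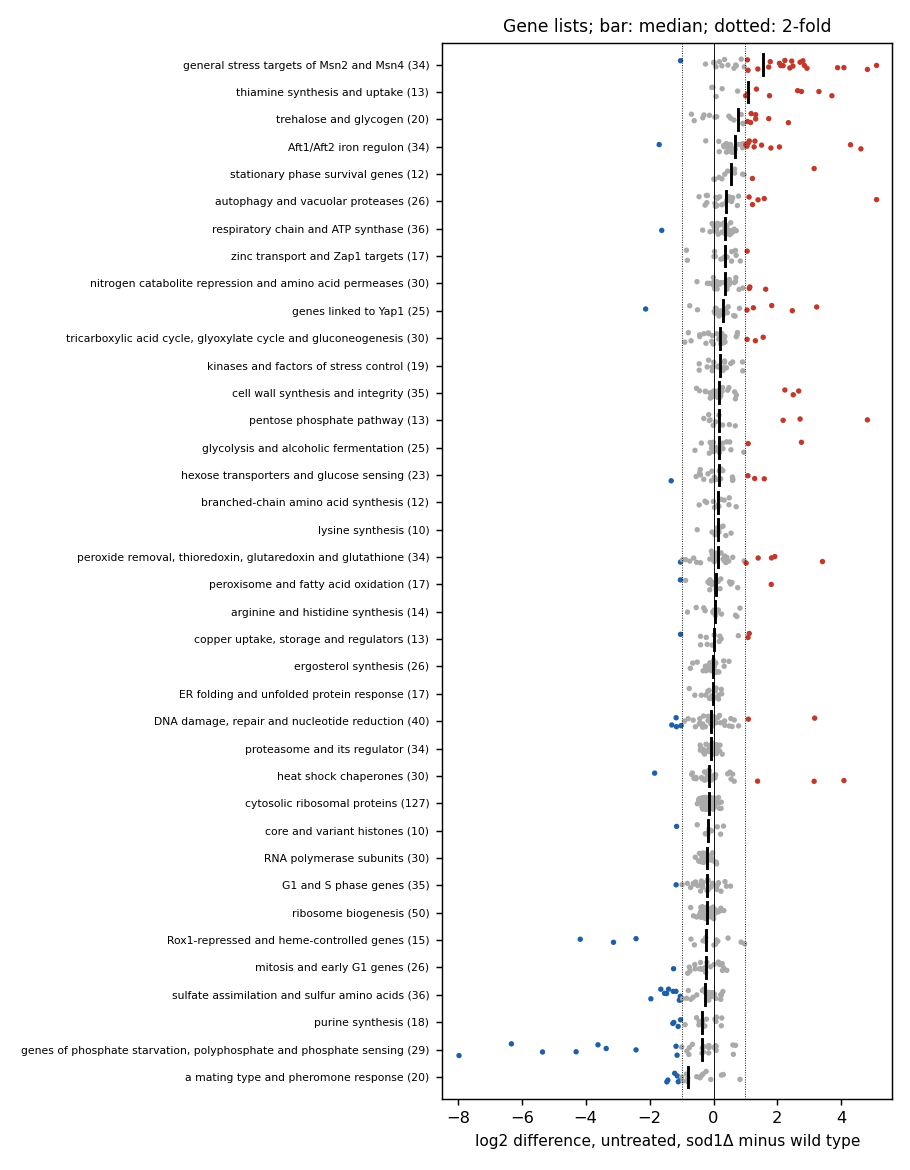
Log2 difference, sod1Δ minus wild type, untreated (x axis), for every gene compared in each gene list (y axis, number of genes in brackets), with members at least 2-fold higher in red and lower in blue and the list median as a black bar. Medians run from -0.81 for a mating type and pheromone genes to 1.56 for general stress targets, and, *SOD1* left aside, the largest decreases sit in the phosphate list.

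Reserve carbohydrate genes were higher with the stress genes, some of which they share. Of 20 trehalose and glycogen genes, 7 were at least 2-fold higher and 0 lower, beside 3.71% and 3.18% of all genes. Their median was 0.75. For glycogen, *GDB1*, the debranching enzyme gene, was at 9.04 and 11.38, and *GPH1*, the phosphorylase gene, at 10.43 and 11.75. For trehalose, the synthase complex genes *TPS2* and *TSL1* were 2.26- and 2.24-fold higher, and the trehalase genes *ATH1* and *NTH1* 2.49- and 2.09-fold higher. Genes for making and for breaking down these reserves were thus both among the higher ones.

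In carbon metabolism the higher genes were mostly minor isoforms. The pentose phosphate pathway had 3 of 13 genes higher and 0 lower, beside 3.71% and 3.18% of all genes. They were *SOL4*, *GND2* (7.25 and 9.43) and *NQM1* (5.18 and 7.89). The main isoform genes *ZWF1* and *GND1* stayed under 2-fold, the first at 12.46 and 12.63. In glycolysis and fermentation 2 of 25 (8.0%) were higher, *TDH1* (13.10 and 14.18) and the pyruvate decarboxylase gene *PDC5* (8.44 and 11.19). Of 23 hexose transport and glucose sensing genes, 3 were higher and 1 lower, beside 3.71% and 3.18% of all genes. *HXT5*, *HXT11* and *HXT7* were higher by 1.59, 1.29 and 1.08. *MTH1*, a co-repressor gene of hexose transporters, was lower at 6.87 and 5.54. *HXT7* has a probe set that can also bind near-identical transcripts, and with such probe sets left out 2 of 20 genes were higher.

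Respiratory genes were under 2-fold apart with 1 exception. Of 36 genes of the respiratory chain and ATP synthase, 32 were above 0 in difference, with a median of 0.35, and 0 were at least 2-fold higher. *CYC1*, encoding cytochrome c, was the exception, at 8.52 and 6.90, 3.08-fold lower. In the tricarboxylic acid cycle and gluconeogenesis list, 3 of 30 were higher, beside 3.71% of all genes. They were the regulators *ADR1* (7.81 and 9.36) and *SIP4* (4.26 and 5.57) and the mitochondrial malate dehydrogenase gene *MDH1* (10.29 and 11.34). *ACO1*, whose product aconitase carries an iron-sulfur cluster that superoxide attacks, was at 12.90 and 11.998.

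A part of the iron genes was higher. Aft1 and Aft2 are the factors that switch on iron uptake when iron-sulfur cluster synthesis falls short. Of 34 genes of their regulon, 11 were at least 2-fold higher and 1 lower, beside 3.71% and 3.18% of all genes. The list's median was 0.67, 32 of 34 differences were above 0, and 22 members stayed under 2-fold.

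Cell wall and siderophore genes were among the higher iron genes, although the largest difference, 4.61, was that of *LSO1*. *FIT1*, encoding a mannoprotein that holds siderophores in the cell wall, had a level of 5.92 in wild type and 10.21 in sod1Δ, 19.5-fold higher. Its relatives *FIT3* and *FIT2* were at 12.25 and 14.04 and at 13.49 and 14.54. The siderophore transporter genes *ARN1* and *ARN2* were 2.84- and 2.41-fold higher, *SIT1* differed by 0.93 and *ENB1* by 0.33. Of these transporter genes only *ARN1* and *ARN2* passed 2-fold.

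Reductive uptake differed less. *FET3* and *FTR1*, the ferroxidase and permease genes, differed by 0.44 and 0.57 and were already bright, at 13.13 and 13.26 in wild type. The reductase gene *FRE3* was at 9.75 and 11.05, whereas *FRE4* was lower at 7.07 and 5.37 and *FRE1* and *FRE2* differed by 0.78 and 0.67. *CCC2* and *ATX1*, which carry copper to Fet3, were 2.12- and 2.17-fold higher. Reductase genes of the same family thus went both ways.

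Genes for saving and recycling iron were higher too. *LSO1*, an iron-responsive gene, was at 2.06 in wild type, below the floor, and at 6.68 in sod1Δ, at least 20.6-fold higher. *HMX1*, the heme oxygenase gene, was at 7.60 and 9.66, and *TIS11*, whose product destroys messenger RNAs of iron-using proteins, at 10.87 and 11.88. The iron-sulfur scaffold genes *ISU2* and *ISU1* differed by 0.91 and 0.32, *CCC1*, for vacuolar iron storage, by -0.24, and *AFT1* and *AFT2* by 0.53 and 0.45.

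Copper and zinc genes differed less. Of 13 copper genes, *CCC2* and *ATX1* were the 2 higher ones and *FRE7*, a metal reductase gene at 3.97 and 2.94, the 1 lower one. The shares of all genes were 3.71% and 3.18%. *FRE7* missed 2-fold under quantile normalization, array median centring and the offset, with -0.73, -0.99 and -0.27 for the difference of FRE7. The copper transporter gene *CTR1* differed by -0.41 and the metallothionein gene *CUP1-1*, which shares its sequence with a tandem copy, by 0.24. In the zinc list 1 of 17 genes (5.88%) was higher, *ATG41* (10.58 and 11.63), beside 3.71% of all genes. *ZRT1*, the high-affinity zinc transporter gene, differed by 0.30. The transporter genes *CTR1* and *ZRT1* for the metals that Sod1 carries thus differed by less than 2-fold.

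Most thiamine genes were higher. Thiamine diphosphate is the cofactor of pyruvate decarboxylase and transketolase, and the factors Thi2, Thi3 and Pdc2 switch on its synthesis when thiamine is short. Of 13 genes, 8 were at least 2-fold higher and 0 lower, beside 3.71% and 3.18% of all genes, with a median of 1.07. For the pyrimidine branch, *THI13* stood at 8.39 in wild type against 12.09 in sod1Δ, 13.04-fold higher, but its family members are nearly identical and can share signal. For the thiazole branch, *THI4* was at 10.01 and 13.31, 9.84-fold higher. Thi4 gives up a sulfur atom of its own cysteine in this reaction and needs iron, so it acts once per molecule.

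The later steps and the transporters were less uniform. *THI6*, which joins the branches, was at 10.39 and 11.73, *THI20* at 10.89 and 11.95 and *THI21* at 5.95 and 6.96. *THI73*, a presumed plasma membrane transporter gene, was at 8.99 and 11.62, while the thiamine transporter gene *THI7* differed by 0.75. *THI2*, the activator gene, was at 7.45 and 9.20, and the sensor gene *THI3* differed by 0.27. *THI80*, which makes the diphosphate, *THI22* and *PHO3* differed by -0.06, -0.02 and 0.08. *PDC5*, counted in this list as well, is the pyruvate decarboxylase gene that thiamine shortage induces.

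**Figure D4:**
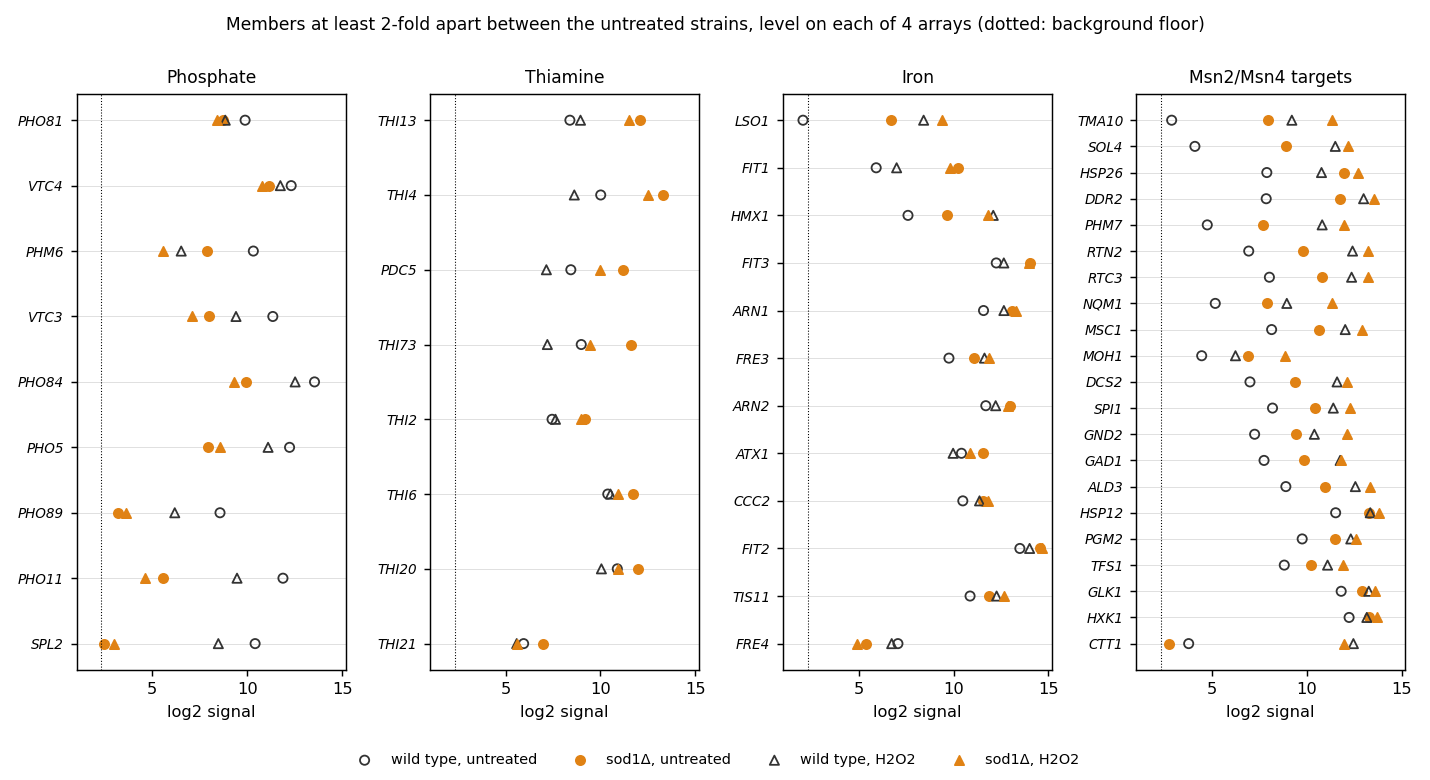
Log2 signal (x axis) on each of the 4 arrays, for the phosphate, thiamine, iron and Msn2 or Msn4 genes (y axis) that differed at least 2-fold between the untreated strains. Circles are untreated and triangles H2O2-treated samples, open for wild type and filled for sod1Δ; the dotted line is the background floor of 2.31. Phosphate genes such as *PHO84* stay apart by strain in both conditions, while *SOL4* and *DDR2* lie close together after H2O2.

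A part of the sulfur amino acid genes was lower. The factors Cbf1, Met4, Met28, Met31 and Met32 switch on the uptake and reduction of sulfate and the making of methionine. Of 36 genes, 10 were at least 2-fold lower and 0 higher, beside 3.18% and 3.71% of all genes. The median of -0.28 becomes 0.32, with 2 genes lower, when scaled to the hybridization controls. With 32 added to the linear signal the count of lower genes was 5, and among the 24 members with a mean signal of at least 8 it was 3.

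Of the 10 decreases, 8 lay in the sulfate branch and its regulators. *MET3*, *MET14* and *MET16*, for the steps from sulfate to sulfite, were at 9.77 and 8.36, at 8.43 and 6.47, and at 9.08 and 8.003. *MET5*, for a sulfite reductase subunit, was at 10.55 and 9.29, and the sulfate permease gene *SUL2* at 6.19 and 5.15. The regulators *MET28*, *CBF1* and *MET32* were 2.89-, 2.77- and 2.04-fold lower, and *MET4* differed by 0.24. *MHT1* and *MMP1*, neighbours that serve growth on S-methylmethionine, were 3.14- and 2.26-fold lower. Downstream of sulfide, the methionine synthase gene *MET6* differed by -0.71, and *CYS3* and *CYS4*, for cysteine from homocysteine, by -0.03 and 0.03.

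The lists of 3 other amino acid pathways held no gene past 2-fold. Lysine synthesis had 0 of 10 genes past that limit, with a median of 0.15. The lists of arginine and histidine synthesis (14 genes, median 0.04) and of branched-chain amino acids (12 genes, median 0.15) had 0 as well. In purine synthesis and one-carbon metabolism, 4 of 18 genes were lower and 0 higher, beside 3.18% and 3.71% of all genes. Their median was -0.35, and 0 were lower when scaled to the hybridization controls. The 4 were *MTD1* (9.79 and 8.52), *ADE17* (11.49 and 10.25), *ADE8* (9.25 and 8.14) and *GCV2* (10.80 and 9.77). *MTD1* and *GCV2* belong to the one-carbon genes, and *GCV1*, of the same glycine cleavage complex, differed by -0.89.

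Nitrogen genes tended slightly upward. Of 30 genes of nitrogen catabolite repression and amino acid uptake, 3 were higher and 0 lower, beside 3.71% and 3.18% of all genes. Their median was 0.35. The 3 higher ones were *GAP1*, the general amino acid permease gene (5.69 and 7.33), *DAL1*, the allantoinase gene (5.31 and 6.44), and *ARO9*, an aromatic aminotransferase gene (9.18 and 10.30). *DAL80* and *PUT4* were near the floor on both arrays, at 2.39 and 2.41 and at 2.32 and 2.36.

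Genes known from low oxygen were among the largest decreases. Heme and oxygen keep these genes off through the repressor Rox1. Of 15 genes, 3 were lower and 0 higher, beside 3.18% and 3.71% of all genes, with a median of -0.24. Scaled to the hybridization controls the median was 0.36, with the count of lower genes still 3 and 3 higher. *ANB1*, the hypoxic form of translation factor eIF5A, had a level of 7.21 in wild type and 3.04 in sod1Δ, 18.0-fold lower. *AAC3*, the hypoxic ATP/ADP carrier gene, was at 8.77 and 6.34, and *TIR1*, a cold and low oxygen mannoprotein gene, at 8.81 and 5.68. *ROX1* itself was at 9.96 and 10.94, just short of 2-fold. *ANB1* shares its upstream region with *CYC1*, the oxygen-induced gene lower by 1.62, so these neighbours were lower together although oxygen controls them in opposite ways.

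Antioxidant genes differed in a few members. Of 34 genes of peroxide removal, thioredoxin, glutaredoxin and glutathione, 5 were higher and 1 lower, beside 3.71% and 3.18% of all genes. Their median was 0.13. *TSA2*, the minor cytosolic peroxiredoxin gene, stood at 3.97 in wild type against 7.38 in sod1Δ, 10.6-fold higher. *PRX1*, the mitochondrial peroxiredoxin gene, was at 10.60 and 11.99, and the glutathione transferase genes *ECM4* and *GTO3* at 8.13 and 10.05 and at 7.53 and 9.35. *GPX1*, a glutathione peroxidase gene, was 2.03-fold higher. The 1 lower gene was *CTT1*, which missed 2-fold under quantile normalization, array median centring and the offset, with -0.83, -0.9954 and -0.24 for the difference of CTT1.

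The main enzymes of thiol defence were close to wild type. *TSA1* was at 13.93 and 14.10, *TRR1* at 12.82 and 12.92, *TRX2* at 12.71 and 13.06 and *GLR1* at 11.55 and 11.85. *SRX1*, the sulfiredoxin gene that peroxide induces strongly, was at 2.42 and 2.66, barely above the floor in both strains. The mitochondrial cytochrome c peroxidase gene *CCP1* was at 11.41 and 10.44, just short of 2-fold lower, and *CTA1*, the peroxisomal catalase gene, differed by -0.88.

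Genes linked to Yap1, the peroxide-activated factor, also split. Of 25 genes, 5 were higher and 1 lower, beside 3.71% and 3.18% of all genes, with a median of 0.30. *HBN1* and *FRM2*, neighbouring nitroreductase-like genes, were at 6.84 and 10.07 and at 5.14 and 6.96. *YML131W*, *GRE2* and *OYE3*, for oxidoreductases, were higher by 2.47, 1.25 and 1.05. *YLR460C*, of an oxidoreductase family, was lower at 5.10 and 2.97. *YAP1* differed by 0.30, and its targets *FLR1*, *ATR1*, *GSH1* and *AAD6* by 0.38, 0.43, 0.05 and -0.50, so the list had no common shift beyond 2-fold.

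Several pheromone response genes were lower. In a cells the receptor Ste2 acts through the G protein of Gpa1, Ste4 and Ste18 and a kinase cascade ending in Fus3 and the factor Ste12. Of 20 genes of a mating type and pheromone response, 6 were at least 2-fold lower and 0 higher, beside 3.18% and 3.71% of all genes. Their median of -0.81 was the lowest of the lists drawn in the plot of lists. It was -0.21, with 0 lower, when scaled to the hybridization controls. *SST2*, which turns the signal off, had a level of 9.96 in wild type and 8.49 in sod1Δ. *FUS1* and *PRM1*, for cell fusion, were at 7.39 and 5.96 and at 5.39 and 4.18. *FAR1*, which arrests the cycle, was at 11.02 and 9.89, and the agglutinin genes *AGA1* and *AGA2* were 2.05- and 2.15-fold lower.

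Pathway genes lay close to the limit. *FUS3*, *STE12*, *GPA1* and *KAR4* differed by -0.9988, -0.96, -0.85 and -0.81, each short of 2-fold. Off the list, *STE4* was at 10.65 and 9.63 and the kinase gene *KSS1* at 7.85 and 6.59. Among genes specific to a cells, *STE2*, *MFA1*, *MFA2* and *STE6* differed by -0.09, -0.42, 0.31 and -0.38, *BAR1*, for the protease that degrades alpha-factor, by -0.80, and *AGA2* was past 2-fold. Pheromone is known to induce *SST2*, *FUS1*, *PRM1*, *FAR1* and *AGA1*, which were lower, and *PRM5* and *FIG1* on the same list differed by 0.83 and 0.25.

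Autophagy and late-growth genes were higher in part. Of 26 genes in the autophagy and vacuolar protease list, 5 were higher and 0 lower, beside 3.71% and 3.18% of all genes, with a median of 0.39. Of these 5, 1 was *TMA10*, which the list held under its systematic name. It is the stress target described above and no autophagy or vacuolar protease gene, so without it the list and the count are each 1 gene smaller. The others were *ATG8*, whose lipid-linked product builds the autophagosome (8.74 and 10.13), *ATG11*, a scaffold gene (7.31 and 8.53), the vacuolar protease gene *PRB1* (10.01 and 11.60) and *APE1*, for a cargo of the pathway (9.92 and 11.03). Receptor genes outside the list were higher as well: *ATG32* for mitophagy was at 7.08 and 8.36, and *ATG39* and *ATG40* for the nuclear envelope and the endoplasmic reticulum were higher by 2.63 and 1.24. In the stationary phase list, 2 of 12 were higher, beside 3.71% of all genes, and 12 of 12 differences were above 0. The 2 were *HSP30* (5.91 and 9.06) and *SNZ3* (9.85 and 11.06). *SNZ3* has a probe set that can also bind near-identical transcripts, and with such probe sets left out 1 of 10 was higher.

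Of 35 cell wall genes, *YPS6*, *PIR3* and *SPI1* were higher by 2.67, 2.50 and 2.23 and 0 were lower, with a median of 0.18, and *SPI1* is also a stress target. The share higher was 8.57%, beside 3.71% of all genes. The 3 genes encode an aspartyl protease of the surface, a wall protein linked through alkali-sensitive bonds and a small stress-induced wall protein. In the peroxisome list 1 of 17 genes was higher and 1 lower, 5.88% each, beside 3.71% and 3.18% of all genes. *SPS19*, for fatty acid oxidation, was at 8.62 and 10.43, and *PXA2*, for fatty acid import, at 3.33 and 2.29, which makes it at least 2.02-fold lower.

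Heat shock and protein quality genes were near wild type as groups. Of 30 heat shock chaperone genes, *HSP26*, *HSP30* and *HSP42* were higher by 4.08, 3.15 and 1.38 and *CUR1*, a sorting factor for misfolded proteins, was lower at 5.95 and 4.10. The list's median was -0.13, and 10.0% were higher and 3.33% lower, beside 3.71% and 3.18% of all genes. Proteasome genes (34, median -0.08), genes of folding in the endoplasmic reticulum (17, median -0.01) and ergosterol genes (26, median -0.01) had 0 members past 2-fold in either direction.

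Genes for the machinery of growth had small differences, with list medians slightly below the -0.07 of all genes. Cytosolic ribosomal protein genes had a median of -0.15 over 127 genes, within -0.51 and 0.24, and ribosome biogenesis genes -0.22 over 50 genes. RNA polymerase subunit genes had a median of -0.19 over 30 genes. In the same order, 14 of 127, 8 of 50 and 3 of 30 differences were above 0. Scaled to the hybridization controls, the medians were 0.45, 0.39 and 0.41, against 0.53 for all genes. None of these 3 lists had a gene past 2-fold.

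Cell cycle and DNA damage genes had scattered calls. Of 40 genes of DNA damage, repair and nucleotide reduction, 2 were higher and 4 lower, beside 3.71% and 3.18% of all genes. Their median was -0.07. *HUG1*, which restrains ribonucleotide reductase and is induced by replication stress, stood at 4.20 in wild type against 7.36 in sod1Δ, 8.97-fold higher, and *RNR3*, the damage-induced reductase subunit gene, was at 3.37 and 4.46. *RAD10*, *RAD18*, *RAD52* and *TOS4* differed by -1.31, -1.16, -1.02 and -1.17, and 1 of these 4 remained lower with 32 added. *RNR3* also missed 2-fold then, at 0.35 for the difference of RNR3. G1 and S phase genes (35, median -0.19) had *TOS4* as the 1 lower member, and mitosis genes (26, median -0.24) had *ASE1*, a spindle midzone gene, at 8.23 and 6.98. The shares lower were 2.86% and 3.85%, near the 3.18% of all genes. Among 10 histone genes the centromeric variant gene *CSE4* was the 1 lower member (10.0%), at 6.98 and 5.83.

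Many of the genes that differed belonged to no list. The lists together held 1004 of the genes compared, with 79 higher and 47 lower, and the other 4340 genes held 119 higher and 123 lower. *COS12*, of a subtelomeric family of membrane proteins, was at 2.32 in wild type, at the edge of the floor, and at 6.30 in sod1Δ. *EGO4*, *YOR389W* and *YOR338W*, of unknown or little known function, were higher by 3.34, 2.97 and 2.93, and *RGI1*, a gene of respiratory energy metabolism, by 2.87. *YOR293C-A* and *ATF2* differed by -2.53 and -2.43, and *YJU2*, below the floor in sod1Δ, was at least 4.90-fold lower. Atf2 is an alcohol acetyltransferase that also detoxifies steroids, and Yju2 works in splicing. Their wild type signals, between 4.61 and 5.65, were dim.

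The treated pair of arrays shares no sample with the untreated pair and shows the strains in another condition, so it is no replicate. There, 164 of 5341 genes (3.07%) were higher in sod1Δ and 338 (6.33%) lower. Of the 198 genes higher untreated, 72 were at least 2-fold higher after H2O2 too and 188 had the same sign, with a median of 0.79 in place of 1.37. Of the 170 lower genes, 74 were lower again and 155 had the same sign, with a median of -0.91 in place of -1.24. The gap between the strains was wider after H2O2 for 24 of the higher and 47 of the lower genes. Genes chosen for a large difference on 1 pair of arrays tend to differ less on another pair through the choice alone, so nothing is read from the smaller medians.

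**Figure D5:**
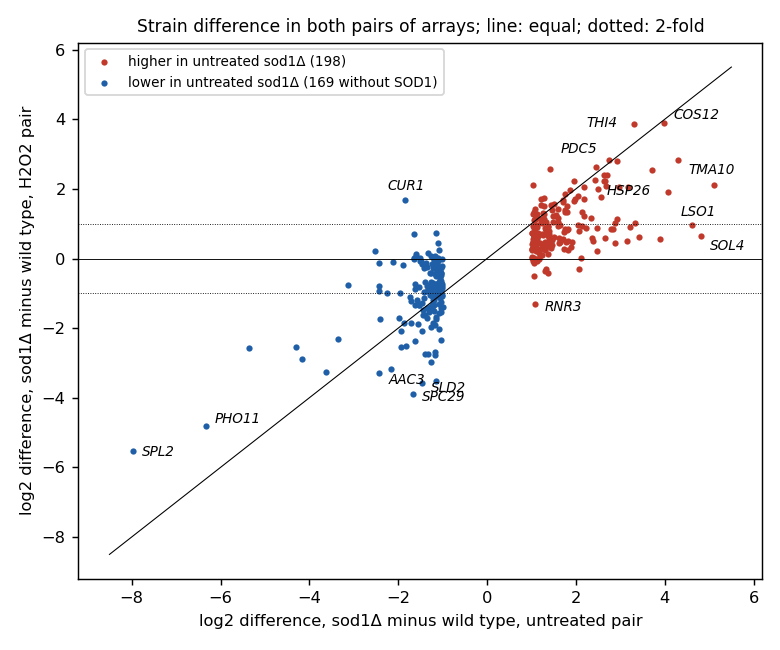
Log2 difference, sod1Δ minus wild type, in the untreated pair (x axis) and the H2O2-treated pair (y axis), for the genes at least 2-fold higher (red) or lower (blue) untreated, with *SOD1* left out. Most points keep their sign, 188 of 198 higher and 155 of 170 lower genes with *SOD1* counted, and *CUR1* and *RNR3* are at least 2-fold the other way.

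Gene groups differed in how many members were past 2-fold in the treated pair. Phosphate genes were lower in both, with 6 of 29 after H2O2, beside 6.33% of all genes. *SPL2* was then at 8.47 in wild type and 2.96 in sod1Δ. *PHO84* was at 12.52 and 9.27 and *PHO5* at 11.09 and 8.55 there. Thiamine genes were higher in 6 of 13, beside 3.07% of all genes, with *THI4* at 8.62 and 12.49 and *PDC5* at 7.15 and 9.97. Others were closer after H2O2: *PHO89* differed by -2.58, *PHM6* by -0.94, *PHO81* by -0.42, *THI6* by 0.37 and *THI21* by 0.01. Of the genes past 2-fold untreated, 6 of 9 phosphate genes and 5 of 8 thiamine genes were past it again. Of all genes past 2-fold untreated, 43.5% of the lower and 36.4% of the higher ones were. These groups were not matched for the size of the untreated difference.

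Msn2 and Msn4 targets and iron genes had fewer members past 2-fold after H2O2, as did phosphate, thiamine, sulfur and reserve carbohydrate genes. Msn2 and Msn4 targets were higher in 6 of 34, beside 3.07% of all genes, with a median of 0.53. For example, *SOL4* was at 11.50 in treated wild type and 12.16 in treated sod1Δ, and *DDR2* at 12.995 and 13.56. Iron genes were higher in 2 of 34, *FIT1* (6.997 and 9.82) and *FIT3* (12.65 and 13.97), with a median of 0.11, and *LSO1* was at 8.42 and 9.37. Sulfur genes were lower in 6 of 36, with a median of -0.41, and pheromone genes in 6 of 20, with a median of -0.68. The share of all genes lower there was 6.33%. *TSA2* and *HBN1* were at 12.55 and 13.18 and at 12.54 and 13.44, so the strain gap that both showed untreated was under 2-fold after treatment.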

How the data were processed

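The authors deposited log2 values for each probe set of 4 arrays, and the untreated pair is used here. They were made with GCRMA, per the submitters' processing notes, in a version not given in the sources used here. GCRMA models background from probe sequence and draws absent transcripts into a narrow band, so folds that touch this band are stretched.

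Of 10928 probe sets, 5498 named 1 *S. cerevisiae* gene through the platform annotation, with symbols updated for 12 of them from the RefSeq gene table, and probe sets of a gene were averaged into 5449 genes. A further 1746 probe sets belonged to *S. pombe*, 1 named several genes, 3470 had no gene name here and 213 were controls. The floor, 2.31, is the 95th percentile of the *S. pombe* probe sets over all arrays. A gene entered when its brighter array lay above it, and 105 did not. Arrays give no counting depth, and 1 array per group limits the precision.

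The difference is sod1Δ minus wild type, called at 2-fold or more, without a test, since 1 array a side leaves no residual degrees of freedom. If the dimmer array did not exceed the floor, the fold is a bound against it. The 41 gene lists were chosen with earlier results of these data known. Named genes are the 20 largest differences each way, list members past 2-fold or otherwise up to 4 with the largest differences, *SOD1* with its neighbours, and markers. Other genes that the text names were chosen after their values were seen. Alternatives were other scalings, another floor, other thresholds and other handling of probe sets. The calling steps were tested on simulated data with the same noise at every signal level. That run checks the steps, and cannot show how often dim genes are miscalled. Promoter sequences were not analysed here. Python 3.11.15, numpy 2.4.6, pandas 2.3.3 and matplotlib 3.10.9 were used.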

Additional observations from a re-analysis of the deposited data

Results flagged for a closer look

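*CUR1*, a sorting factor gene for misfolded proteins, differed between the strains in opposite directions in the 2 pairs of arrays. It was at 5.95 in untreated wild type and 4.10 in untreated sod1Δ, a difference of -1.84. After H2O2 it was at 7.09 and 8.76, a difference of 1.67. *RNR3*, the damage-induced ribonucleotide reductase subunit gene, showed the opposite order. It was at 3.37 and 4.46 untreated, a difference of 1.09, and at 7.11 and 5.80 after H2O2, a difference of -1.31. The change between the pairs was not tested, since each value rests on 1 array.

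Among 385 probe sets with no gene name here that were above the floor on an untreated array, 23 (5.97%) differed at least 2-fold, 12 higher and 11 lower in sod1Δ. Their differences ran from -2.17 to 2.46. Without a gene name they belong to no comparison above.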

How the results depend on the processing

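With 1 array per strain no replicate could be left out, and no fit with shared spread was used. No paired analysis was possible because each group had 1 array and the labels carry no replicate numbers. The 2-fold counts, 198 higher and 170 lower, moved most with the fold and with damping of dim signals. At 1.5-fold they were 460 and 543, and at 4-fold 48 and 18. With 32 added to the linear signal the lower count was 70 and the higher count 148. Among the 3784 genes with a mean signal of at least 8, an alternative chosen after seeing the data, they were 113 and 43. Quantile normalization gave 229 and 129, array median centring 215 and 153, and the brightest probe set, probe sets that can cross-hybridize left out, no floor, a 99th percentile floor, or both arrays above the floor gave 191 to 198 and 164 to 170. Scaling to the median of the hybridization controls, also chosen after seeing the data, gave 751 and 39, and turned the medians of the phosphate and purine lists from -0.36 and -0.35 to 0.24 and 0.255, with that of all genes at 0.53. Of the 198 and 170 genes, 196 and 129 were called again after quantile normalization and 198 and 39 after scaling to the controls. The median difference of all genes was -0.07 as reported and between -0.06 and -0.03 under quantile normalization, array median centring and the offset. The medians of 4 lists near 0 (superoxide dismutases, ergosterol, folding in the endoplasmic reticulum and copper) crossed it under some alternative other than scaling to the controls, as did that of the low oxygen list, which was 0.07 among genes with a mean signal of at least 8. Among single genes, *YOR072W-B* turned from -1.05 to 0.0163 when probe sets that can cross-hybridize were left out. Signals near the floor limit what dim genes can show.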

Other observations

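Genes of the kinetochore and spindle were lower in a list put together after values had been seen, so its counts are a description. Of 49 genes, 13 were at least 2-fold lower in untreated sod1Δ and 0 higher, beside 3.18% and 3.71% of all genes. Their median was -0.50. The list was not rescaled to the hybridization controls, a scaling under which 39 of all 170 lower genes stayed lower. Nor was the offset of 32 on the linear signal applied to it, with which 70 of those 170 stayed lower. *SHE1*, for a microtubule-associated protein, had a level of 6.07 in wild type and 3.82 in sod1Δ, and *SPC29*, for a spindle pole body component, was at 6.14 and 4.46. *CSM1*, for a kinetochore clamp subunit, was at 7.69 and 6.15, *BIK1*, for a microtubule plus-end protein, at 8.59 and 7.33, and *CIN8*, for a kinesin, at 7.22 and 6.18. The median of these genes' mean signals was 7.27, and 6.21% of all genes with a mean between 6 and 8 were lower. After H2O2, 10 were lower and 1 higher, *CTF19*, beside 6.33% and 3.07% of all genes, with a median of -0.71.

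Meiotic recombination genes were listed in the same way, and neither the scaling to the controls nor the offset was applied to them. Of 24 genes, 7 were lower and 0 higher, beside 3.18% and 3.71% of all genes. Their median was -0.52. *NDJ1* was at 6.50 and 4.09, *SPO16* at 7.39 and 5.42 and *ZIP1* at 4.00 and 2.61. The first tethers telomeres and the others build the synaptonemal complex. The median mean signal of the list was 5.26, and 11.6% of all genes under 6 were lower. Among 21 phospholipid genes, also listed after values were seen, 2 were lower and 0 higher, beside 3.18% and 3.71% of all genes. They were the activator genes *INO4* and *INO2*, at 6.99 and 5.06 and at 6.40 and 5.27. Their target *INO1* differed by -0.59 and *OPI3* by 0.05. Among 21 exporter genes, listed in that way too, 3 were higher and 0 lower, beside 3.71% and 3.18% of all genes. The polyamine transporter genes *TPO2* and *TPO3* and the multidrug exporter gene *QDR2* were higher by 1.13, 1.07 and 1.12, each little past 2-fold. The value of *TPO2* is the mean of probe sets at 0.72, short of 2-fold, and 1.54, and its signal can include that of relatives.

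Genes near chromosome ends were called more often than others. Of 217 genes among the first or last 10 protein-coding genes of a chromosome, 25 (11.5%) were higher and 14 (6.45%) lower, against 3.37% and 3.04% of the other 5127. They included *PHO89*, *ARN2*, *HSP31* and *YML131W*. Probe sets that can bind relatives were those of *PHO11*, *YEL075C*, *PAU4*, *PAU14*, *YFL065C*, *DSF1*, *MST28*, *MPH2*, *SNZ3*, *YPL278C*, *YPL277C* and *THI13*. Over all genes compared, 12 of the higher and 6 of the lower genes had such probe sets. The shares at chromosome ends were not worked out without them. Chromosome medians lay between -0.10 and 0.00. Of 4840 pairs of adjacent genes compared, 24 had both genes called, close to the 23.0 that the overall share of called genes, 6.89%, gives for that many pairs. In 12 both were higher, in 4 both lower and in 8 they went in opposite directions. The 23.0 pools the directions, and no such number was worked out for each of them. The pairs higher together included *HSP31* with *FIT1*, *HBN1* with *FRM2*, *FIT2* with *FIT3* and *GAD1* with *GTO3*, while *CIN8* was lower beside *PRB1*, which was higher.

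Some strain differences were nearly equal in both pairs of arrays. *COS12* was at 2.32 and 6.30 untreated and at 2.37 and 6.27 after H2O2. *HPF1*, for a cell wall mannoprotein, differed by 1.70 untreated and 1.67 after H2O2, *YDL241W* by -1.87 and -1.85, *ATG32* by 1.27 and 1.27, and *STE4*, for the G protein beta subunit, by -1.02 and -1.04.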
